A study of Mus musculus with 24 samples.

Results

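The 41 genes described here encode heat shock proteins, their partners and the factors that control them. They were taken from a list of gene symbols that was drawn up with earlier results of these data known. Symbols were matched to Ensembl IDs through GENCODE release M21, no value entered the match, and each of the 41 was found once among the 39056 genes of the count table. All 41 passed the low-count filter that left 18789 genes for testing. By role they comprise 8 Hsp70 and Hsp110 proteins, 2 Hsp90 proteins, 7 J proteins, 9 cochaperones of Hsp70 and Hsp90, 7 subunits of the chaperonin TRiC, 4 mitochondrial chaperones, 2 heat shock transcription factors, the small heat shock protein Hspb1 and Serpinh1. Serpinh1 acts in the endoplasmic reticulum, so with the mitochondrial proteins Hspa9, Hspd1, Hspe1 and Dnaja3 the list reaches beyond cytosolic chaperones.

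The RNA came from CD4 T cells of NZBWF1/j females, hybrids prone to spontaneous autoimmunity that resembles lupus, and every group shares this background. Treated mice received recombinant mouse OX40L at 2 mg/kg and JAG1 at 2 mg/kg into the peritoneum once a week for 3 weeks from 23 weeks of age. OX40L is the ligand of the costimulatory receptor OX40, and JAG1 is a ligand of Notch receptors. Controls were matched for age and sex and received PBS, and cells were taken at week 26. From both kinds of mice 4 subsets were sorted. Conventional cells (Tconv) were CD4+CXCR5-GITR-, regulatory cells (Treg) CD4+CXCR5-GITR+, follicular helper cells (TFH) CD4+CXCR5+PD1Hi with GITR absent or low, and follicular regulatory cells (TFR) CD4+CXCR5+PD1Hi with high GITR. Each of the 8 groups has 3 libraries, 24 in all. The labels do not say whether libraries of a group were made from different mice, so the p-values speak to the spread between these libraries alone, which may be technical. Nor do they name the organ of origin.

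Chaperones keep proteins folded. Hsp70 proteins bind exposed stretches of unfolded chains, J proteins bring them clients and speed their ATP hydrolysis, exchange factors such as the Hsp110 protein Hsph1 and the BAG proteins release the client, and Stip1 hands clients on to Hsp90, which finishes kinases and steroid receptors. TRiC folds actin and tubulin, and Hspd1 with its lid Hspe1 folds proteins inside mitochondria. On heat and other stress the transcription factor HSF1 forms trimers that bind heat shock elements, repeats of GAA and its complement TTC, and raises the inducible members, of which Hspa1a, Hspa1b, Hsph1 and Dnajb1 are classical examples. T cell activation also raises several of these proteins, and the T cell kinase Lck is a client of Hsp90.

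The groups also differed in library properties. Treated libraries held 31.8 to 53.8 M (mega) counts, control Tconv and Treg libraries 24.7 to 33.2 M, control TFR 4.85 to 9.62 M and control TFH 2.54 to 15.2 M. Mitochondrially encoded genes took 1.85 to 3.17% of counts in treated and 9.5 to 16.9% in control libraries, without overlap. RNA handling and treatment therefore cannot be told apart in any comparison of treated with control mice, and depth differed along with them. With all libraries thinned to 2.54 M counts, 18 of the 21 members called by treatment in Tconv cells were still called. The same held for 13 of 14 in Treg, 23 of 25 in TFH and 30 of 30 in TFR cells. Kidney transcripts stood out in some libraries. Podocyte markers (10 genes) summed to 1319 and 1292 CPM in control Tconv 1 and 2. Of the treated libraries TFH 3 held 1546, TFR 1 held 606 and Treg 3 held 174 CPM of them, and no other library exceeded 81.5 CPM. Counts of members are given with and without these 5 kidney-marked libraries, an alternative added after the data were seen. Leaving them out leaves control Tconv with 1 library, which is then assumed to vary like the other groups. Shares of all genes are given for fits of all 24 libraries only. The counts without the 5 therefore do not show whether a fall is particular to the members. Of the sort markers, Foxp3 and Cxcr5 followed the labels in control libraries. Foxp3, the regulatory lineage factor, averaged 473 and 354 CPM in control Treg and TFR against 5.81 and 47.3 CPM in control Tconv and TFH libraries. Cxcr5, the follicle homing receptor, averaged 121 CPM in control TFH against 1.83 CPM in control Tconv libraries. Of 11 markers of CD4 T cells and of the sort, 8 were higher and 2 lower by treatment in Tconv, 4 and 3 in Treg, 3 and 4 in TFH and 6 and 3 in TFR cells. Over all genes 6.89%, 5.17%, 16.5% and 15.6% were higher and 3.05%, 3.56%, 5.86% and 6.39% lower, in the same order. The sum of the 11 markers went from 1313 ± 168 CPM in control to 2813 ± 72.7 CPM in treated Tconv libraries. In Treg, TFH and TFR libraries it went from 3735 to 4366, 2930 to 3211 and 4020 to 4453 CPM. The part of these shifts in the chaperone results was not tested.

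Because members that respond together may share promoter sequence, RefSeq promoter windows (build GRCm38.p6) were searched for heat shock elements in the 250 bases before the start. The 3-unit element was read as GAA, TTC and GAA, or TTC, GAA and TTC, with 2 bases of any kind (NN) between neighbouring units. The 2-unit element, which every 3-unit element contains, was read as GAA then TTC, or TTC then GAA, with the same spacing. Either order was accepted, so both strands are covered. A window was present for 34 of the 41 genes, and missing for Hspa8, Hsp90aa1, Hsp90ab1, Hspa9, St13, Hsf1 and Cct4. Of the 34, the 3-unit element was found in 3, Hspd1, Hspe1 and Dnajb6, the 2-unit element alone in 11, and neither in 20. Among all 32851 windows 0.47% held the 3-unit and 12.8% the 2-unit element, or 0.51% and 14.5% of the 27025 genes. A match is a description of the letters and shows no binding. The median log2 fold changes of treated against control, for 3-unit, 2-unit alone and neither, were 1.34, 0.76 and 0.29 in Tconv cells. They were 0.97, 0.46 and 0.30 in Treg, 1.22, 0.89 and 0.44 in TFH and 1.63, 0.99 and 0.78 in TFR cells. Hspd1 and Hspe1 start beside each other on opposite strands, so 2 of the 3 genes with a 3-unit element stand for 1 shared promoter region. Dnajb6, the other, changed by -0.17 to 0.21. The ranges of these sets overlapped in every subset, and a link of element and response was not tested. Dnajb1 and Hspb1 below are single examples, and Hspb1 was nearly absent, so its not passing says little. The following stretches are printed 5′ to 3′ on the gene's strand, with matches in capitals: first the nearly identical inducible Hsp70 pair, then Dnajb1, a strong responder with no match, then Hspb1, which has matches and did not pass the test, and last short stretches around the elements of Hsph1, Hspe1 and Dnajb6.
Hspa1a promoter, chr17:34972157-34972306, minus strand: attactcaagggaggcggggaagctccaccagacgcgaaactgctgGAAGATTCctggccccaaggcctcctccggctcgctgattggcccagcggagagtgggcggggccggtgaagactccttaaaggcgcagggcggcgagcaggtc
Hspa1b promoter, chr17:34959239-34959388, minus strand: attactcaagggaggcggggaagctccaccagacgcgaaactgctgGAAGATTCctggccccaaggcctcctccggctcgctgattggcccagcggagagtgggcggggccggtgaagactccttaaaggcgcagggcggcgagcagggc
Dnajb1 promoter, chr8:83608025-83608174, plus strand: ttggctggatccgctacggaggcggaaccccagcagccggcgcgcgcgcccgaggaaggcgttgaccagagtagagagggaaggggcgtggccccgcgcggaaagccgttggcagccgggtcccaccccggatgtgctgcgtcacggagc
Hspb1 promoter, chr5:135887769-135887918, plus strand: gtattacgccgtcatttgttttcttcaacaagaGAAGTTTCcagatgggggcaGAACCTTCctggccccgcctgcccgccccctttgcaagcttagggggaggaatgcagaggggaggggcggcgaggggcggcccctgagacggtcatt
Hsph1, chr5:149636351-149636380, minus strand: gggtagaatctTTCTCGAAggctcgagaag
Hspe1, chr1:55088053-55088082, plus strand: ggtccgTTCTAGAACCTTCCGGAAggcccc
Dnajb6, chr5:29735843-29735872, plus strand: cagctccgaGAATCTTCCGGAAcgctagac
The Hspa1a and Hspa1b windows differed at 3 of 250 positions and at 1 of the last 150, and both carried their 2-unit match 104 bases before the start. The Hsph1, Hspe1 and Dnajb6 stretches lie in the search window of 1 RefSeq start. Those of Hspe1 and Dnajb6 lie inside annotated exons, and that of Hsph1 overlaps its annotated gene in part.

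In all 4 subsets treatment went with higher levels of the inducible chaperones, and more members were higher than lower. In Tconv cells 21 of 41 members passed the test as higher and 0 as lower, against 6.89% and 3.05% of all tested genes. In Treg cells 14 were higher and 0 lower, against 5.17% and 3.56%. In TFH cells 23 were higher and 2 lower, against 16.5% and 5.86%. In TFR cells 30 were higher and 0 lower, against 15.6% and 6.39%. The median log2 fold change of the members was 0.35, 0.32, 0.59 and 0.86 in Tconv, Treg, TFH and TFR cells, and that of all tested genes 0.02, 0.09, 0.42 and 0.40. The test was edgeR's quasi-likelihood test, with p-values adjusted over all 18789 genes and a threshold of 0.05, and "higher" and "lower" below mean past it. Fold changes carry the standard error of the log2 fold change (log2FC), and levels are CPM (read counts relative to the scaled total of their library), given as mean ± SD of 3 libraries. The standard error rests on a spread shared by all 8 groups, so it does not measure the spread of the groups compared alone. Taken by group, the biological coefficient of variation was 0.0751 in treated Tconv, 0.921 in control TFR and 1.04 in control TFH libraries. In bulk RNA a change in the mix of cells and a change per cell cannot be told apart.

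The 13 members higher in all 4 subsets were Hspa1a, Hspa1b, Hspa8, Hsph1, Hsp90aa1, Hsp90ab1, Dnaja1, Dnajb1, Dnajb4, Hspd1, Hspe1, Chordc1 and Tcp1. Another 3 were higher in 3 subsets, 10 in 2 and 7 in 1. The 8 higher in none were Hspb1, Dnajb6, Dnajc7, Bag1, Hsf1, Hsf2, Serpinh1 and Cct4. Without the kidney-marked libraries the members higher numbered 12 in Tconv, 11 in Treg, 17 in TFH and 29 in TFR cells. No share of all genes is given beside these counts. Scaling changed the split of all genes in 2 subsets. In Tconv cells 1294 genes were higher and 574 lower, or 1062 and 746 with relative log expression factors, which moved the median of all genes to -0.08 and left 17 members higher. In Treg cells 972 were higher and 668 lower, or 1218 and 490 with scaling factors computed without antigen receptor, haemoglobin and mitochondrial genes, with 21 members higher. Leaving out those genes also moved the all-gene median in TFR cells from 0.40 to 0.50, with 34 members higher.

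**Figure D1:**
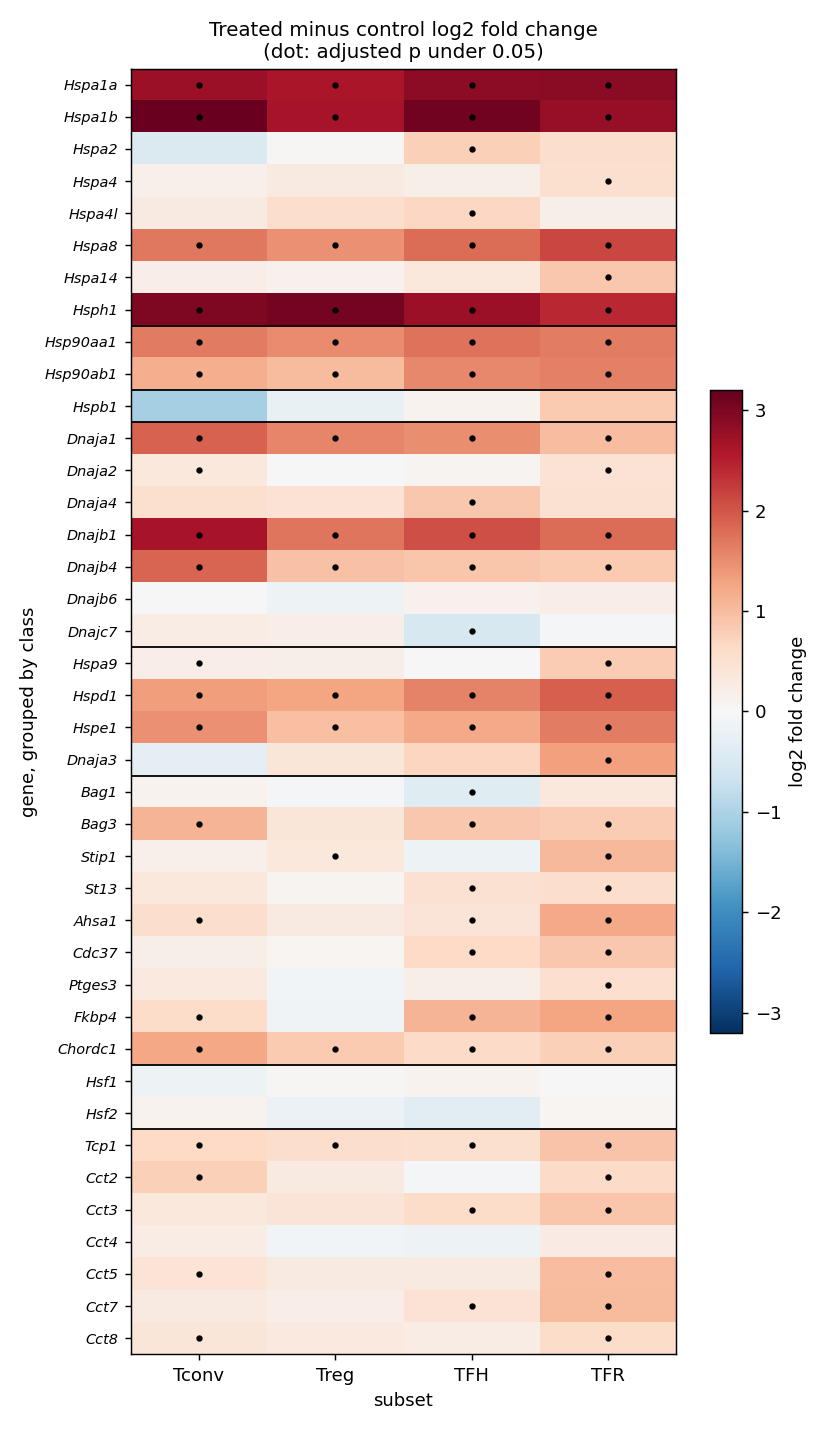
Heat map of the log2 fold change, treated minus control, of 40 of the 41 members (rows, ordered by class) in the 4 subsets (columns). A dot marks an adjusted p under 0.05, and Serpinh1 is not drawn because groups at 0 reads give no usable fold. The largest values lie in the Hsp70 and Hsp110 block, up to 3.17 for Hspa1b in Tconv cells, and the TFR column has the most dots, 30.

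Among Hsp70 proteins the stress-inducible pair changed most. Hspa1a (ENSMUSG00000091971.3, chromosome 17, 34969190 to 34972156, minus strand, mm10) stood at 490, 459 and 565 CPM in the 3 control Tconv libraries and at 3504, 3288 and 3232 CPM in the treated ones. In Treg libraries it stood at 169, 182 and 188 CPM in controls and 1133, 1172 and 992 CPM after treatment. In TFH libraries the control values were 313, 342 and 229 CPM and the treated values 2301, 2149 and 1972 CPM. TFR libraries had the lowest levels, with 124, 116 and 65.8 CPM in controls and 649, 774 and 832 CPM in treated mice, and in every subset the lowest treated library lay above the highest control. The log2FC was 2.73 ± 0.18 in Tconv, 2.61 ± 0.18 in Treg, 2.87 ± 0.18 in TFH and 2.88 ± 0.18 in TFR cells, with adjusted p of 3.6e-10, 7.8e-10, 2.3e-10 and 2.0e-10. The 4 increases thus lay between 6.12-fold and 7.34-fold although the control level ranged from 102 ± 31.5 CPM in TFR to 504 ± 54.4 CPM in Tconv cells.

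Hspa1b (ENSMUSG00000090877.3, chromosome 17, 34956436 to 34959238), the neighbouring gene for an almost identical protein, went from 452, 445 and 540 CPM in control to 4534, 4323 and 4118 CPM in treated Tconv libraries. In the other subsets its control libraries lay between 91.6 and 263 CPM and its treated libraries between 635 and 2100 CPM, again without overlap within a subset. Its log2FC was 3.17 ± 0.13 in Tconv, 2.63 ± 0.12 in Treg, 3.09 ± 0.13 in TFH and 2.78 ± 0.13 in TFR cells, with adjusted p from 2.6e-13 to 2.1e-12. Of the 50-base words of their exons 60.3% in Hspa1a and 62.3% in Hspa1b also occur in another gene, chiefly each other, so the split of reads between them is uncertain and their sum is firmer. The sum was 7667 ± 347 against 984 ± 107 CPM in Tconv, 2220 ± 184 against 360.1 ± 4.82 CPM in Treg, 4129 ± 285 against 527 ± 34.6 CPM in TFH and 1503 ± 199 against 211 ± 34.4 CPM in TFR cells. Hspa1a also shares 19% of its exonic length with the antisense gene Gm20481.

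Hspa8, the constitutive Hsp70, was among the most abundant members before treatment. It stood at 1254, 1252 and 1388 CPM in control and 4387, 4192 and 3932 CPM in treated Tconv libraries. In TFR libraries it stood at 571, 490 and 482 CPM in controls and 2142, 2321 and 2319 CPM in treated mice. The increases were 3.21-fold in Tconv, 2.75-fold in Treg, 3.48-fold in TFH and 4.40-fold in TFR cells (log2FC 1.68, 1.46, 1.80 and 2.14, each ± 0.09, adjusted p from 9.3e-13 to 1.2e-10). Its pseudogene Gm15459, which shares 34.6% of the 50-base words, reached 1200 CPM in treated Tconv libraries, and up to 31.1% of the Hspa8 level over the groups, so some Hspa8 reads may have been counted there.

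Hsph1, the Hsp110 exchange factor, had the largest increase of any member in Treg cells. It stood at 83.8, 87.4 and 88.2 CPM in control and 727, 730 and 693 CPM in treated Treg libraries (log2FC 3.05 ± 0.22, adjusted p = 1.9e-09). The log2FC was 2.98 ± 0.22 in Tconv, 2.75 ± 0.22 in TFH and 2.41 ± 0.21 in TFR cells. Control TFR libraries reached at most 99.5 CPM and treated TFR libraries at least 375 CPM. None of its 50-base words occurs in another gene. The other 4 members of this class changed less. Hspa4, an Hsp110-type exchange factor, and Hspa14, an Hsp70 of the ribosome, passed in TFR cells and in no other subset (log2FC 0.51 ± 0.10 and 0.86 ± 0.18). Hspa4l, a relative of Hspa4, and Hspa2, known from male germ cells, passed only in TFH cells (0.66 ± 0.20 and 0.77 ± 0.25). Hspa2 stood at 51.4, 45.5 and 51.1 CPM in control and 34.9, 36.1 and 36.4 CPM in treated Tconv libraries, a fall without overlap that did not pass (log2FC -0.46, adjusted p = 0.24).

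**Figure D2:**
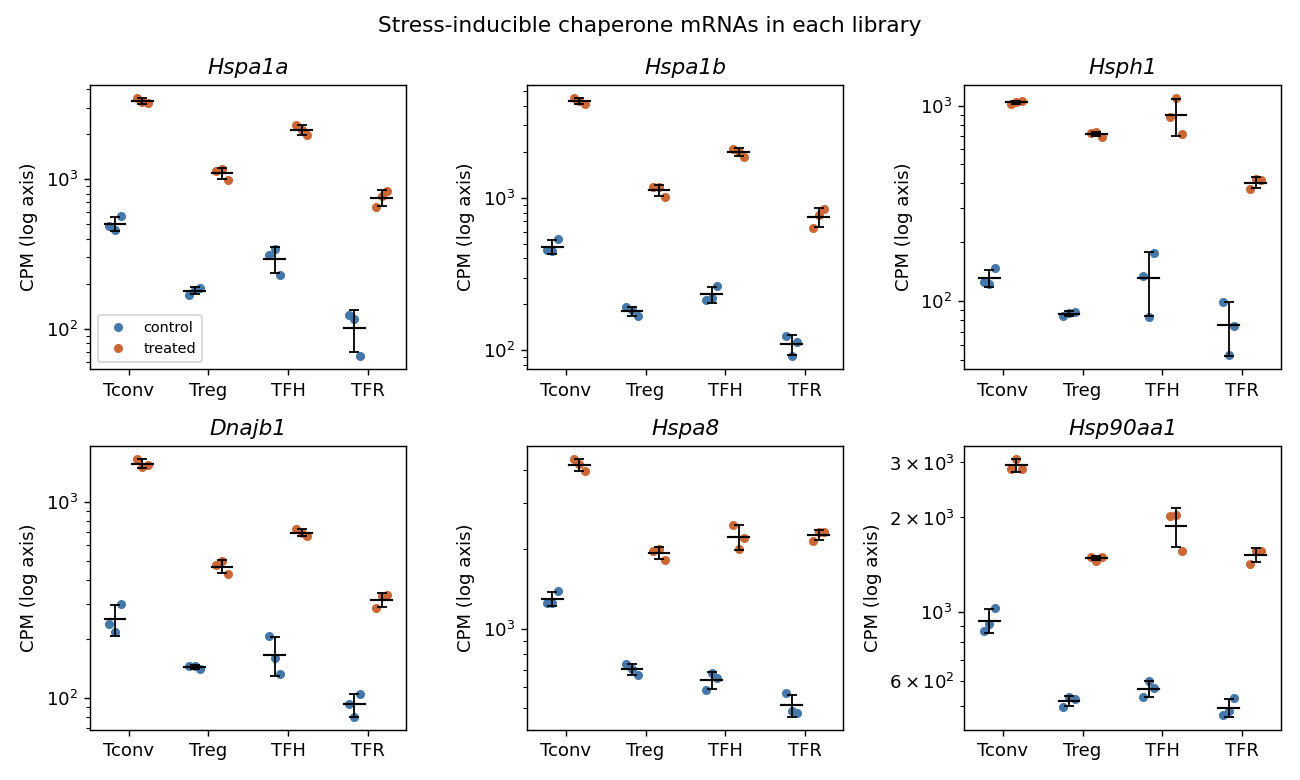
Level of Hspa1a, Hspa1b, Hsph1, Dnajb1, Hspa8 and Hsp90aa1 in each of the 24 libraries (points) with mean and SD of the 3 libraries of a group (bars), in CPM on a log axis, by subset and treatment. In each panel the 3 treated libraries of a subset lie above its 3 controls, and Hspa1a falls from 3341 CPM in treated Tconv to 751 CPM in treated TFR cells.

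Both cytosolic Hsp90 genes were higher in all 4 subsets. The inducible form Hsp90aa1 (chromosome 12, 110690605 to 110702728) stood at 864, 913 and 1028 CPM in control and 2857, 3087 and 2861 CPM in treated Tconv libraries. It rose by a similar factor everywhere, 3.14-fold in Tconv, 2.86-fold in Treg, 3.31-fold in TFH and 3.09-fold in TFR cells (log2FC 1.65, 1.52, 1.73 and 1.63, each ± 0.09). The constitutive form Hsp90ab1 (chromosome 17, 45567775 to 45573271) stood at 587, 617 and 552 CPM in control and 1667, 1792 and 1879 CPM in treated TFR libraries. Its increase was 2.26-fold in Tconv, 2.01-fold in Treg, 2.90-fold in TFH and 3.04-fold in TFR cells, with adjusted p from 1.4e-10 to 2.1e-07. Per kilobase of exon Hsp90ab1 was the most abundant member in all 4 control groups, at 195 to 357 CPM per kb, while in treated Tconv cells Hspa1b led with 1543 CPM per kb. Of the 50-base words of Hsp90aa1 47.5% occur in pseudogenes, the highest of which reached 37.6 CPM.

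Of the 7 J proteins, 4 were higher in Tconv, 3 in Treg, 4 in TFH and 4 in TFR cells. Over all genes 6.89%, 5.17%, 16.5% and 15.6% were higher, in the same order. Dnajb1, the inducible partner of Hsp70, stood at 237, 217 and 301 CPM in control and 1657, 1497 and 1530 CPM in treated Tconv libraries. It rose 6.21-fold in Tconv, 3.25-fold in Treg, 4.18-fold in TFH and 3.42-fold in TFR cells, with log2FC of 2.64, 1.70, 2.06 and 1.78 (each ± 0.14). Dnaja1, another cytosolic partner of Hsp70, rose 3.71-fold, 2.96-fold, 2.78-fold and 1.99-fold in the same order, from 281 ± 25.5 to 1041 ± 59.9 CPM in Tconv and from 216 ± 59.0 to 430.2 ± 21.8 CPM in TFR cells. Dnajb4, a close relative of Dnajb1, rose from 108 ± 14.1 to 394 ± 17.4 CPM in Tconv cells (log2FC 1.87 ± 0.17) and by 0.83 to 0.93 in the other subsets. These 3 genes had their largest increase in Tconv cells. Dnaja2 was higher in Tconv and TFR cells (log2FC 0.35 ± 0.09 and 0.47 ± 0.10) and Dnaja4 in TFH cells (0.87 ± 0.18), though 44.1% of the exonic length of Dnaja4 overlaps the antisense gene Wdr61. Dnajb6, an inhibitor of protein aggregation, changed by -0.17 to 0.21 and passed in no subset. Dnajc7, a J protein that binds both Hsp70 and Hsp90, was lower in TFH cells. It stood at 164, 178 and 253 CPM in control and 149, 129 and 145 CPM in treated TFH libraries (log2FC -0.50 ± 0.15, adjusted p = 0.019). The call was lost without the kidney-marked libraries (log2FC -0.52 ± 0.18).

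The mitochondrial chaperonin was higher in every subset. Hspd1 (chromosome 1, 55077835 to 55088243, minus strand) stood at 126, 102 and 121 CPM in control and 402, 462 and 448 CPM in treated TFR libraries. In Tconv libraries it stood at 135, 130 and 124 CPM in control and 323, 349 and 317 CPM in treated mice. Its log2FC was 1.34, 1.26, 1.60 and 1.91 in Tconv, Treg, TFH and TFR cells (each ± 0.12). Hspe1, the lid of the chaperonin, starts on the opposite strand next to Hspd1 (chromosome 1, 55088132 to 55091307), and their exons overlap over 112 bases. It rose 2.76-fold, 1.95-fold, 2.33-fold and 3.08-fold, so both genes of the shared promoter region had their largest fold in TFR and their smallest in Treg cells. Hspa9, the Hsp70 of mitochondria, was higher in Tconv and TFR cells. It stood at 257, 264 and 258 CPM in treated against 227, 220 and 220 CPM in control Tconv libraries (log2FC 0.22 ± 0.07, adjusted p = 0.043). The TFR values were 291, 312 and 305 CPM in treated against 187, 172 and 160 CPM in control libraries (0.81 ± 0.07, adjusted p = 3.2e-08). In TFH cells it did not pass, with a log2FC of -0.02. Dnaja3, the mitochondrial J protein, passed in TFR cells only (log2FC 1.32 ± 0.32), from 9.43 to 23.7 CPM. The 13 mRNAs encoded by mitochondrial DNA went the other way, with 12, 12, 12 and 11 lower and 0 higher in Tconv, Treg, TFH and TFR cells. Over all genes 3.05%, 3.56%, 5.86% and 6.39% were lower. The part of these mRNAs in the result was not tested.

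Of the 9 cochaperones, 8 were higher in TFR, 6 in TFH, 4 in Tconv and 2 in Treg cells. The share of all genes higher also differed, at 15.6%, 16.5%, 6.89% and 5.17% in the same order. Stip1, the adaptor between Hsp70 and Hsp90, stood at 107, 92.7 and 100.1 CPM in control and 185, 211 and 217 CPM in treated TFR libraries (log2FC 1.03 ± 0.09, adjusted p = 4.4e-08). It was also higher in Treg cells (0.35 ± 0.09, adjusted p = 0.016) and not called in Tconv or TFH cells (0.17 and -0.15). Ahsa1, the activator of the Hsp90 ATPase, rose 2.30-fold in TFR cells, from 49.5 ± 4.76 to 114 ± 9.21 CPM, with log2FC of 0.57 ± 0.14 in Tconv and 0.42 ± 0.14 in TFH cells. Fkbp4, a prolyl isomerase of steroid receptor complexes, was higher in TFR (1.26 ± 0.15), TFH (1.08 ± 0.15) and Tconv cells (0.59 ± 0.14), and stood at 83.2, 90.2 and 73.3 CPM in treated against 87.4, 95.6 and 84.7 CPM in control Treg libraries, which overlap. Bag3, a stress-inducible exchange factor, was at 67.1 ± 1.09 against 31.7 ± 1.70 CPM in Tconv cells (log2FC 1.08 ± 0.21) and passed in TFH and TFR cells too. Chordc1, an Hsp90 partner, passed in all 4 subsets with log2FC from 0.61 to 1.24. Cdc37, which brings kinases to Hsp90, and St13, an Hsp70 cochaperone, passed in TFH and TFR cells, and Ptges3, the p23 protein of Hsp90, in TFR cells only. Bag1, an exchange factor, was lower in TFH cells, at 85.8, 81.8 and 75.4 against 95.8, 102 and 119 CPM (log2FC -0.39 ± 0.12, adjusted p = 0.028), a call lost without the kidney-marked libraries.

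Of the 7 subunits of TRiC, 6 were higher in TFR, 4 in Tconv, 3 in TFH and 1 in Treg cells. The share of all genes higher was 15.6%, 6.89%, 16.5% and 5.17% in the same order. Cct4 passed in no subset, with log2FC from -0.15 to 0.27. Tcp1 stood at 181, 188 and 162 CPM in control and 311, 353 and 333 CPM in treated TFR libraries (log2FC 0.91 ± 0.16). It passed in the other 3 subsets with log2FC from 0.52 to 0.64. Cct7, Cct5 and Cct3 rose by 1.01 ± 0.12, 0.99 ± 0.12 and 0.89 ± 0.14 on the log2 scale in TFR cells, and Cct2 and Cct8 by 0.62 ± 0.11 and 0.58 ± 0.11. In Treg cells Tcp1 alone of the 7 passed. In TFH cells Tcp1, Cct3 and Cct7 passed, while Cct2 stood at 351, 325 and 295 CPM in treated and 315, 405 and 279 CPM in control libraries. In Tconv cells Tcp1, Cct2, Cct5 and Cct8 passed, led by Cct2 at 481, 493 and 487 CPM in treated against 269, 266 and 328 CPM in control libraries (log2FC 0.76 ± 0.11). Of these Tconv calls only Cct2 held without the kidney-marked libraries (log2FC 0.58 ± 0.15, adjusted p = 0.040). Other genes, in part antisense, overlap 16.9% of the exonic length of Tcp1.

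The transcription factors were not called in any treatment comparison. Hsf1, the master factor of the heat shock response, averaged 32.3 against 36.0 CPM in Tconv and 23.6 against 23.5 CPM in TFR libraries, treated first. Its control TFR libraries ranged from 5.87 to 41.6 CPM, so changes of this size would be hard to see there. Hsf2, a related factor, differed between subsets instead. In control mice it stood at 67.3, 69.1 and 66.7 CPM in Treg against 31, 34.1 and 37.6 CPM in Tconv libraries (log2FC 0.98 ± 0.20, adjusted p = 0.0017). In treated mice the order from high to low was TFR, Treg, TFH and Tconv, as in controls, with 86.3 ± 4.23 CPM in TFR against 42.7 ± 4.66 CPM in TFH cells (1.02 ± 0.20, adjusted p = 0.0014).

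Hspb1, the small heat shock protein, was nearly absent, at 0 to 11.2 CPM per library, and its standard error of 1.05 to 1.08 on the log2 scale hides any but a large change. The collagen chaperone Serpinh1 tracked the kidney-marked libraries. It stood at 61.7, 56.7 and 0.254 CPM in control Tconv libraries 1, 2 and 3, and at no more than 0.786 CPM in 18 other libraries. The treated libraries TFH 3, TFR 1 and Treg 3 held 73.1, 26.1 and 5.89 CPM. No read was seen in any control TFH or TFR library. It was not called in any treatment comparison.

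**Figure D3:**
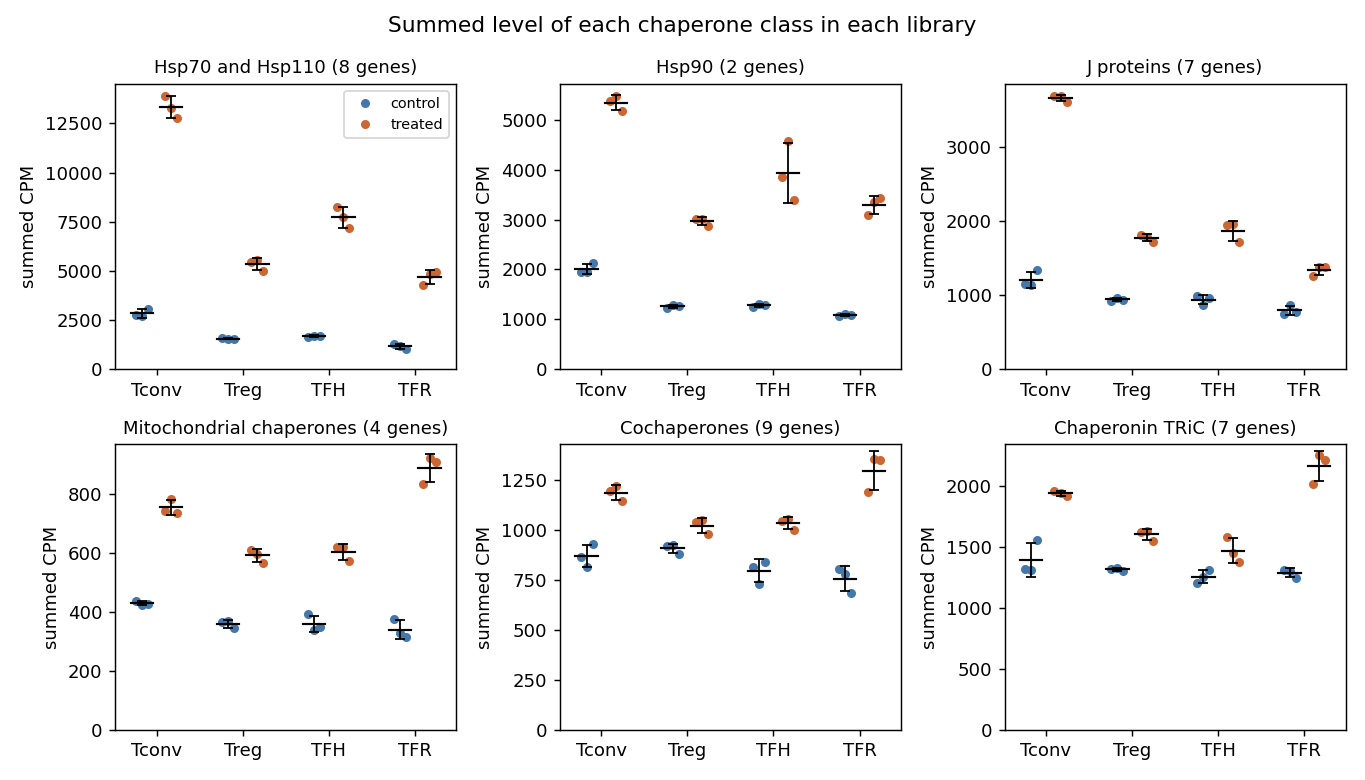
Summed CPM of the members of 6 classes in each library (points), with mean and SD of 3 libraries (bars), by subset and treatment. The Hsp70 and Hsp110 sum reaches 13327 CPM in treated Tconv and 4678 CPM in treated TFR cells, whereas the TRiC and cochaperone sums are highest in treated TFR cells, at 2163 and 1296 CPM.

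Levels between subsets followed 2 patterns. Summed over the 41 members, control libraries held 8841 ± 578 CPM in Tconv, 6409 ± 79.4 CPM in Treg, 6398 ± 106 CPM in TFH and 5520 ± 268 CPM in TFR cells. Treated libraries held 26298 ± 763, 13386 ± 527, 16761 ± 1171 and 13786 ± 847 CPM in the same order. Hspa1a, Hspa1b, Hspa8, Hsp90aa1 and Hsp90ab1 took 48.5% of these reads in control and 65.4% in treated Tconv libraries, and 32.7% and 51.2% in TFR libraries. Hspa1a, Hspa1b, Hsph1 and Dnajb1 had the same order of means in treated mice as each had in controls, from Tconv through TFH and Treg to TFR. Some neighbours in that order did not differ beyond their spread: control Hsph1 libraries of TFH cells ranged from 82.7 to 177 CPM, across all control Tconv values. Tconv cells had the highest mean of 24 members in control and 17 in treated mice. TFR cells had the highest mean of 2 members in control and 17 in treated mice, and the lowest of 23 and 11.

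In control mice Treg cells were higher than Tconv cells in 1 member, Hsf2, and lower in 9, with 5.9% of all genes higher and 3.4% lower. Hspa1b was at 181 ± 12.4 against 479 ± 53.2 CPM (log2FC -1.41 ± 0.12, adjusted p = 1.6e-08), and Hspa8 at 703 ± 31.9 against 1298 ± 77.7 CPM (-0.88 ± 0.09). Hsp90aa1 and Hspa1a were lower by 0.85 and 1.49 on the log2 scale. TFH cells were higher than Tconv cells in Bag3 and Hsf2 and lower in 14 members, against 9.89% and 15.1% of all genes. Hspa8 was at 641 ± 47.9 CPM in TFH cells (log2FC -1.02 ± 0.09), and Hspa1b, Hsp90aa1 and Hsp90ab1 were also among the lower. TFR cells were lower than Treg cells in 6 members and higher in 0, against 7.46% and 2.28% of all genes, led by Hspa1b (-0.72 ± 0.12), Fkbp4 (-0.79 ± 0.15), Hspa8 (-0.45 ± 0.09) and Hspa1a (-0.81 ± 0.17). TFR against TFH cells gave Hsf2 higher and 9 members lower, against 7.82% and 8% of all genes, with Hspa1a at 102 ± 31.5 against 295 ± 58.7 CPM (-1.52 ± 0.17) and Dnajb1 at 92.4 ± 12.5 against 166 ± 36.9 CPM (-0.85 ± 0.14). Hspa9 was lower in TFR cells there by 0.32 ± 0.07. Without the kidney-marked libraries 7 members were called for Treg and 10 for TFH against Tconv cells, and 6 for TFR against Treg and 7 for TFR against TFH cells. Limma voom with quality weights called 1, 0 and 0 members for TFH against Tconv, TFR against Treg and TFR against TFH cells.

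In treated mice, too, most members called between other subsets and Tconv cells were higher in Tconv cells. Treg cells were lower than Tconv cells in 13 members and higher in Hsf2, against 5.54% and 6.37% of all genes, with Hspa1b at 1121 ± 90.0 against 4325 ± 208 CPM (log2FC -1.95 ± 0.12) and Dnajb1 at 466 ± 35.2 against 1561 ± 84.2 CPM (-1.74 ± 0.13). TFH cells were lower in 16 members and higher in Hspa2, against 7.77% and 10.3% of all genes, with Dnajb4 at 97.6 ± 13.8 against 394 ± 17.4 CPM (-2.01 ± 0.17). Without the kidney-marked libraries 10 of the 14 and 12 of the 17 calls were made. TFR cells differed in 2 directions from their neighbours. Against Treg cells 9 members were higher and 4 lower, compared with 1.78% and 2.83% of all genes. The 9 were Hspa9 (0.55 ± 0.07), Stip1 (0.61 ± 0.09), Hspd1 (0.71 ± 0.12), Cct5 (0.51 ± 0.12), Fkbp4, Ahsa1, Cct3, Cct7 and Cct8, and the 4 were Hspa1b (-0.58 ± 0.12), Dnajb1 (-0.56 ± 0.13), Hsph1 (-0.83 ± 0.20) and Dnaja1 (-0.61 ± 0.15). Only 4 of these 13 calls were made without the kidney-marked libraries, and leaving out any 1 of the 6 libraries gave 5 to 8. Against TFH cells 12 members were higher and 7 lower in TFR cells, compared with 4.61% and 4.96% of all genes. Stip1 was at 204 ± 17 against 113 ± 4.35 CPM (0.85 ± 0.09) and Cct8 at 279 ± 11.3 against 177 ± 23.9 CPM (0.66 ± 0.11), while Hspa1a was at 751 ± 93.2 against 2141 ± 165 CPM (-1.51 ± 0.17). Of these 19 calls 12 were made without the kidney-marked libraries.

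The treatment effects themselves were compared by the difference of their log2 fold changes, tested in the same model. TFR minus Treg cells gave 10 members with a larger increase in TFR cells and 0 with a smaller one, against 5.24% and 2.26% of all genes. The median log2 fold change of all tested genes, given above, was also larger in TFR than in Treg cells. Fkbp4 differed by 1.38 ± 0.21 (adjusted p = 0.00033), Hspa9 by 0.62 ± 0.10, Hspa8 by 0.68 ± 0.12 and Stip1 by 0.68 ± 0.13, followed by Cct7, Ahsa1, Hsp90ab1, Cct5, Hspd1 and Dnaja2. Without the kidney-marked libraries 6 were called. For Hspa1a the effect was 2.61 in Treg and 2.88 in TFR cells, and for Hsph1 3.05 and 2.41, neither difference being called. TFR minus TFH cells gave 7 members with a larger increase in TFR cells, and 0 with a smaller one, against 3.3% and 3.75% of all genes: Stip1 (1.18 ± 0.13, adjusted p = 3.5e-05), Hspa9 (0.82 ± 0.10), Cct2, Bag1, Cct5, Ahsa1 and Cct7. Without the kidney-marked libraries 3 were called. Treg minus Tconv cells gave 2 members lower and 0 higher, against 1.8% and 0.883% of all genes, Dnajb1 (-0.93 ± 0.19) and Dnajb4 (-0.94 ± 0.23), both with the larger increase in Tconv cells. TFH minus Tconv cells gave 4 members lower, Cct2, Dnajb4, Dnajc7 and Dnajb1, and 2 higher, Hspa2 and Serpinh1, against 5.22% and 14.4% of all genes. Neither of the comparisons with Tconv cells called a member without the kidney-marked libraries, where Dnajb4 differed by -0.77 ± 0.31 and -0.68 ± 0.31. The comparisons share groups, so their calls are not independent.

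**Figure D4:**
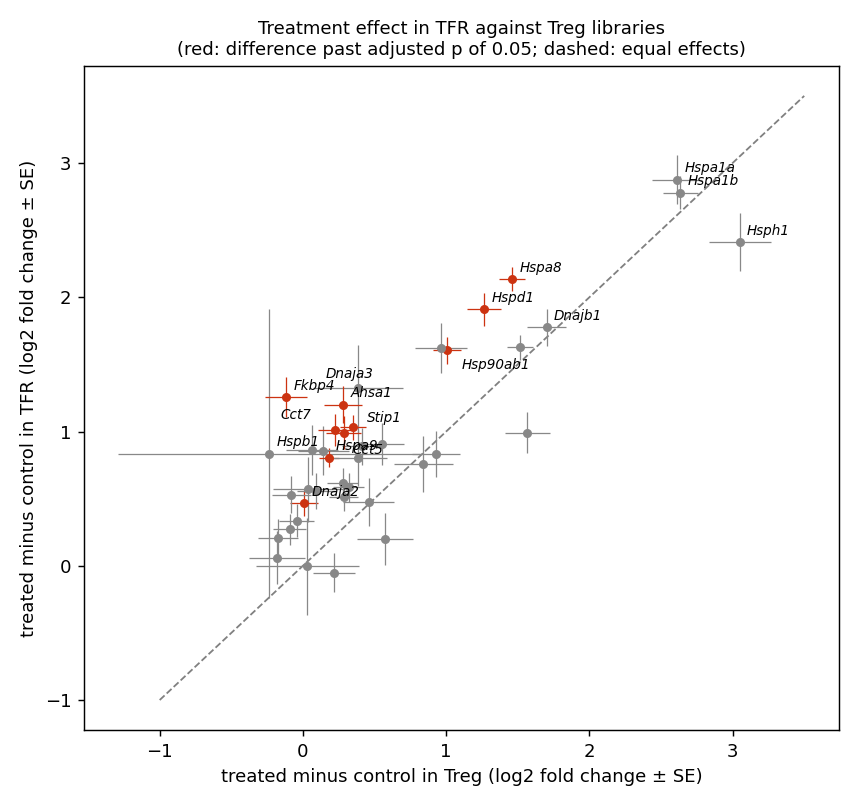
Log2 fold change by treatment in Treg cells (x axis) against TFR cells (y axis) for 40 members, with standard errors. The dashed line marks equal effects, red points are the 10 members whose difference was called, all above the line, and Serpinh1 is not drawn. Hspa1a, Hspa1b and Hsph1 lie at the upper right with effects above 2.4 in both subsets.

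Other genes of the same pathways give the setting. Of 48 further chaperones and partners fixed as a list, 47 were tested, and 4 were higher and 0 lower in Tconv, 4 and 1 in Treg, 5 and 6 in TFH and 9 and 3 in TFR cells. Over all genes 6.89% were higher and 3.05% lower in Tconv, 5.17% and 3.56% in Treg, 16.5% and 5.86% in TFH and 15.6% and 6.39% in TFR cells, so most of these counts lie near or below the background. The medians of the list were 0.03, -0.10, -0.12 and 0.20. Their summed level was 2819 ± 46.4 CPM in treated against 2631 ± 130.1 CPM in control Tconv cells. Hspa1l, the Hsp70 gene beside Hspa1a, was among those with the smallest p and rose from 3.82 ± 0.44 to 19.2 ± 0.99 CPM in Tconv cells (log2FC 2.33 ± 0.65). It shares 50-base words with Hspa1a and Hspa1b and reached at most 0.76% and 0.964% of their levels over the groups. Some reads counted as Hspa1l may therefore be theirs, which was not tested. Cct6a, the TRiC subunit outside the list of 41, rose from 93.4 ± 15.1 to 201 ± 14.4 CPM in TFR cells (1.10 ± 0.11), and Fkbp5, an Hsp90 partner, from 27.5 ± 21.2 to 130.1 ± 17.1 CPM in TFH cells (2.17 ± 0.38). Of 13 stress response genes outside the chaperones 5, 3, 7 and 6 were higher in Tconv, Treg, TFH and TFR cells, and 1, in Treg cells, was lower. Ubb, a ubiquitin gene, rose from 719 ± 61.8 to 1372 ± 83.4 CPM in Tconv cells, Zfand2a, a proteasome-associated heat shock target, from 160 ± 14.4 to 432 ± 8.24 CPM, and Atf3, a stress-induced factor, from 21.5 ± 7.67 to 128 ± 9.45 CPM in TFR cells.

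Immediate early genes, which rise within minutes of stimulation or of tissue handling, moved with the inducible chaperones. Of 18, 16 were higher in Tconv, 10 in Treg, 16 in TFH and 14 in TFR cells, and 0 lower. Over all genes 6.89%, 5.17%, 16.5% and 15.6% were higher and 3.05%, 3.56%, 5.86% and 6.39% lower, in the same order. Their sum rose from 4237 ± 586 to 17952 ± 673 CPM in Tconv, from 4124 ± 134 to 8980 ± 518 CPM in Treg, from 3962 ± 129 to 14757 ± 1387 CPM in TFH and from 3047 ± 114 to 7092 ± 793 CPM in TFR cells. The order of the treated sums, Tconv, TFH, Treg and TFR, was that of Hspa1a, and its part in the result was not tested. Of 21 proliferation genes 4, 14, 12 and 14 were higher, against the same shares of all genes, and Mcm6 was lower in TFH cells. Their sums were 1132, 3031, 1691 and 4406 CPM in treated Tconv, Treg, TFH and TFR cells, the last being the subset with the highest TRiC and cochaperone sums. That relation was not tested either.

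Markers of other cells moved with treatment in part. B cell markers summed to 4.41 to 89.4 CPM per library. Their sum went from 9.78 ± 1.22 CPM in control to 45.5 ± 3.00 CPM in treated Treg and from 16.5 ± 11.3 to 56.4 ± 3.97 CPM in TFR libraries, without overlap. Cd22, a B cell coreceptor, held most of it, with 36.6 CPM in treated Treg and 41.03 CPM in treated TFR libraries. CD8 and NK markers summed to 0.484 to 43.6 CPM and were higher without overlap in treated Tconv (42.8 ± 0.65 against 25.8 ± 5.64 CPM), TFH and TFR libraries. Erythroid and platelet markers summed to at most 25.9 CPM and were lower without overlap in the treated libraries of each subset, and myeloid and dendritic markers reached at most 6.86 CPM. Of the tested B cell, myeloid, CD8 and NK, and erythroid markers, 0 to 2 per list were called in any treatment comparison. Plasma cell markers, which T cells express in part, summed to 149 to 400.1 CPM, with 1 higher and 1 lower in Tconv and Treg, 3 and 1 in TFH and 3 and 0 in TFR cells. Jchain, the joining chain of secreted antibodies, was higher in all 4 subsets, 5.15-fold in Tconv, 2.98-fold in Treg, 9.69-fold in TFH and 25.4-fold in TFR cells, where it went from 4.47 ± 2.23 to 109 ± 5.33 CPM. The part of these markers in the chaperone results was not tested. Fibroblast and endothelial markers summed to 105 to 692 CPM, highest in the kidney-marked treated TFH 3, with 1 higher and 1 lower in Tconv, 0 called in Treg and 1 higher in TFH and TFR cells. Of the proximal tubule markers 1 and of the podocyte markers 3 were lower in Tconv cells and 0 were called in the other subsets. Control Tconv 3, at 15.1 CPM of podocyte markers, had the highest Hspa1a, Hspa1b, Hsph1 and Dnajb1 of its group. In Tconv cells the log2FC of Dnajb1 was 2.38 ± 0.20 without the kidney-marked libraries and 2.64 with them, and the part of kidney transcripts in it was not tested.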

How the data were processed

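Total RNA of the sorted cells was column-purified and DNase-treated. Ribosomal RNA was removed before CORALL total RNA libraries were built, per the labels' protocols. Per the submitters' processing notes, STAR, featureCounts and the mm10 genome were used. Versions, annotation, strand setting and duplicate handling, not given in the sources used here, remain unknown, so reads of antisense or overlapping genes may be split wrongly. The table the authors deposited holds unnormalized read counts for Ensembl genes, judged from its values, whole numbers that sum to 2.54 to 53.8 M counts per library. Symbols came from GENCODE M21, which matched 38872 of 39056 IDs (184 had no match).

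Testing used edgeR 4.0.16 under R 4.3.3 (filterByExpr by group, 18789 genes, TMM factors, 8 group means over 24 libraries, no covariates, two-sided quasi-likelihood F test, Benjamini-Hochberg over all genes, threshold 0.05). CPM are edgeR's counts scaled to a common TMM-adjusted library total. There were 16 comparisons: 4 of treatment, 8 of subsets and 4 differences of treatment effects. In no comparison did the deviations of all 3 same-numbered pairs correlate above 0.1, so the numbers were not taken as pairs. No 2 libraries of a group agreed within sampling noise (chi-square per degree of freedom at least 4.70), so none were merged.

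The members and all lists were chosen with earlier results of these data known. The rule for named genes gives full statistics for 18 class anchors, for the 4 largest changes per direction by treatment, for the 4 smallest p per direction in other comparisons and for up to 3 genes of other lists by p; further members and the other genes named were chosen after their values were seen.

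Alternatives were relative log expression factors, scaling without receptor, haemoglobin and mitochondrial genes, no low-count filter, DESeq2 1.42.0, limma 3.58.1 voom with quality weights, only the libraries compared, the replicate number as a block, thinning to 2.54 M counts, leaving out each library, and leaving out 4 libraries with podocyte markers above 10 CPM and at least 10 times the lowest of their group. A version that leaves out 5 libraries, those with proximal tubule markers above 50 CPM, was added after seeing the data. The edgeR fit was also run on simulated counts with known changes. These counts were drawn with the fit's own spread, shared by all groups, so the run cannot test how unequal spread between groups affects the calls. Copies were counted as 50-base words of exons found in other genes.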

Additional observations from a re-analysis of the deposited data

Results flagged for a closer look

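In 25 instances the treatment effect of a member differed between 2 subsets by the test of the difference itself (edgeR, adjusted over all genes). No group has the 4 libraries that a search for single outlying libraries needs.

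For 10 of the 41 members the increase was larger in TFR than in Treg cells, as was the median log2 fold change of all tested genes. The differences of log2 fold changes, TFR minus Treg, were 1.375 for Fkbp4, 0.9209 for Ahsa1, 0.7876 for Cct7, 0.7078 for Cct5, 0.6831 for Stip1, 0.6765 for Hspa8, 0.6455 for Hspd1, 0.6247 for Hspa9, 0.597 for Hsp90ab1 and 0.462 for Dnaja2, with adjusted p from 0.00033 to 0.040. Of these, Fkbp4, Hspa9, Stip1 and Cct7 passed in each of the 22 alternatives.

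TFR minus TFH cells gave 1.184 for Stip1, 0.8206 for Hspa9, 0.781 for Ahsa1, 0.7221 for Bag1, 0.7044 for Cct5, 0.6546 for Cct2 and 0.5588 for Cct7, with adjusted p from 3.5e-05 to 0.045. Hspa9 passed in each of the 22 alternatives.

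The other 8 involve Tconv cells. Treg minus Tconv cells gave -0.9332 for Dnajb1 and -0.9376 for Dnajb4, and TFH minus Tconv cells gave -0.9779 for Dnajb4, -0.5714 for Dnajb1, -0.7494 for Dnajc7 and -0.7946 for Cct2, with 1.233 for Hspa2. Serpinh1 had a fitted difference of 22.81 there, which is no usable fold because its control TFH libraries had 0 reads and its level elsewhere came with kidney transcripts. None of the 8 comparisons with Tconv cells passed without the kidney-marked libraries, which leaves 1 control Tconv library.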

How the results depend on the processing

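Of the members called by treatment, 12 of 21 in Tconv, 11 of 14 in Treg, 11 of 25 in TFH and 26 of 30 in TFR cells were called in each of the 16 alternatives. No member called in 1 direction was called in the other under any of them. The counts below are given without the share of all genes called under the same setting, which can change too. They describe how stable the calls were, and a higher or lower count is not a result about the members.

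Members higher by treatment in Tconv cells numbered 33 with voom and 12 without 4 or 5 kidney-marked libraries, and 14 to 20 with 1 library left out. Members lower there numbered 1 with no low-count filter, 1 with DESeq2, 4 with voom and 2 when only the libraries compared were fitted. In Treg cells 22 were higher with DESeq2, 27 with voom and 26 with only the libraries compared, where 2 were lower, and 11 to 13 were higher with 1 library left out. In TFH cells 14 were higher with voom and 12 with only the libraries compared, or 17 to 22 with 1 library left out. Members lower there numbered 1 with genes left out of the scaling and with no low-count filter, 0 with voom, with only the libraries compared and without 4 or 5 kidney-marked libraries, and 0 to 3 with 1 library left out (0 without treated TFH 2 or control TFH 3, 1 without treated TFH 3). In TFR cells leaving out 1 library gave 30 to 33 higher.

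Between control subsets, voom called 21 members for Treg against Tconv, 1 for TFH against Tconv, 0 for TFR against Treg and 0 for TFR against TFH cells, and the fit of only the libraries compared 17, 7, 4 and 2. TFH against Tconv cells gave 10 without 5 kidney-marked libraries, TFR against Treg 10 with genes left out of the scaling and 12 without control TFR 2, and TFR against TFH 6 with no low-count filter. With 1 library left out the ranges were 9 to 10, 12 to 19, 5 to 12 and 8 to 10. Between treated subsets, voom called 31, 32, 36 and 33 members and the fit of only the libraries compared 28, 29, 33 and 29, for Treg and TFH against Tconv and TFR against Treg and TFH cells. TFR against Treg cells gave 25 with DESeq2, 8 without 4 and 4 without 5 kidney-marked libraries, and TFR against TFH cells 12 without 5. With 1 library left out the ranges were 11 to 13, 13 to 15, 5 to 8 and 13 to 17, so each of the 6 libraries of TFR against Treg cells moved that count by over 1.5 times.

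For the difference Treg minus Tconv, 1 member was called with relative log expression factors, with genes left out of the scaling and with thinned libraries, 4 with no low-count filter and with DESeq2, 16 with voom, 13 with only the libraries compared and 0 without 4 or 5 kidney-marked libraries, and 1 to 5 with 1 library left out (5 without control Tconv 3, 1 without any other). TFH minus Tconv gave 10 with DESeq2 and 0 without 4 or 5 kidney-marked libraries, and 3 to 9 with 1 left out (3 without treated Tconv 1 or 2). TFR minus Treg gave 17 with only the libraries compared and 6 without 5 kidney-marked libraries, and 8 to 12 with 1 left out. TFR minus TFH gave 1 with voom, 2 with only the libraries compared, 4 without 4 and 3 without 5 kidney-marked libraries, and 5 to 11 with 1 left out (11 without control TFH 2). The cause of these shifts was not tested.

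With the replicate number as a block, 21, 14, 23 and 31 members were higher by treatment and 0, 0, 2 and 0 lower, the 8 subset comparisons called 10, 15, 6, 9, 14, 16, 11 and 19 members and the 4 differences 2, 5, 9 and 6. Deviations of same-numbered libraries correlated by -0.0662 to 0.0793, apart from treated TFR against Treg (-0.702, 0.589 and -0.711) and treated TFR against TFH cells (-0.637, 0.499 and -0.685).

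Direction changed only in values that did not pass the test, of Hsf1, Hsf2, Hspb1, Cct2 and Serpinh1. The log2 fold change of Hsf2 in Tconv cells turned to -0.0504 with only the libraries compared, -0.019 without 4 or 5 kidney-marked libraries and -0.054 with thinned libraries. In TFR cells it turned to -8.849e-06 with relative log expression factors, -0.0016 with DESeq2 and -0.04459 without control TFR 3, in a range of -0.04459 to 0.2182 with 1 library left out. That of Hsf1 in Treg cells turned to -0.002651 with only the libraries compared, -0.12 with thinned libraries, -0.019 without treated Treg 1 and -0.0084 without control Treg 3, and in TFH cells to -0.033 with thinned libraries and -0.03399 without control TFH 3, in a range of -0.03399 to 0.2867 with 1 left out. In TFR cells Hsf1 turned to 0.097 with genes left out of the scaling, 0.13 with voom, 0.074 with the replicate block, 0.013 and 0.014 without 4 and 5 kidney-marked libraries, and 0.010, 0.053 and 0.6892 without treated TFR 1, treated TFR 2 and control TFR 2, in a range of -0.4445 to 0.6892. Hspb1 turned to 0.1817 in Treg cells without control Treg 2 (range -0.5549 to 0.1817), and in TFH cells to -0.35 without 4 or 5 kidney-marked libraries, -0.36 without treated TFH 3 and -0.4539 without control TFH 1 (range -0.4539 to 0.5153). Cct2 in TFH cells turned to 0.024 with genes left out of the scaling, 0.12 with voom, 0.032 without 4 or 5 kidney-marked libraries, 0.030 without treated TFH 3 and 0.1295 without control TFH 2 (range -0.1471 to 0.1295). Serpinh1 in Treg cells turned to -0.58 with voom, -2.42 without 5 kidney-marked libraries and -2.386 without treated Treg 3 (range -2.386 to 8.885, the upper end set against control libraries at 0 reads and no usable fold). Control TFR libraries, at 4.85 to 9.62 M counts, held 0, 6 and 37 reads of Hspb1 and 239, 382 and 31 of Hsf1, so few reads limit Hspb1 there. The shallowest of them had the most Hspb1 reads, and the Hsf1 reads did not follow depth.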
